A study of Mus musculus with 8 samples.

Results

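The genes described here are 10 secreted factors, other than the IL-17 cytokines themselves, that Th17 cells can make: Il21, Il2, Il9, Il10, Il22, Il24, Csf2, Il3, Lif and Ccl20. They were taken by symbol from the deposited table of RNA seq values, and all 10 were among its 22829 genes. Of these, 9 had a mean of at least 10 normalized counts over the 8 samples and were tested, together with all other genes that reached this mean (16982 in all). The remaining gene, Il24, was below it and is given as low only. The 8 samples were T cells of ROR-γt-/- mice, labelled as Th17 cells, in which ROR-γt had been put back: 4 with WT-ROR-γt and 4 with K187R-ROR-γt, the form labelled SUMOylation-defective. All 8 samples therefore lacked the endogenous receptor and carried a transferred one. The study's methods describe CD4+ T cells bead-purified from spleen, a lentivirus as the carrier, and culture under Th17-polarizing conditions. The age of the donor animals, the share of transduced cells and whether the cells were restimulated before RNA was taken are not given in the sources used here. The samples of each group are numbered 1 to 4, but whether a number stands for a shared animal or culture is not given, so the p-values measure the spread between these samples, which may be technical.

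Th17 cells are CD4+ T cells that depend on ROR-γt, a nuclear receptor that binds DNA and drives the IL-17 genes. Beside IL-17 they release factors that act on lymphocytes (IL-21, IL-2, IL-9), on epithelium (IL-22), on myeloid cells (GM-CSF, the product of Csf2, and IL-3) and on other Th17 cells through chemokine recruitment (Ccl20), as well as IL-10, which restrains inflammation. Which of these a culture makes depends on the cytokines present and on how strongly the cells are activated, and several of the genes are switched on by activation within hours and off again.

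Normalized counts are reads per gene divided by 1 size factor per sample, which corrects for sequencing depth. The samples had 52456804 to 74676721 reads on genes, and 3 reads, taken as the smallest detectable count, corresponded to 2.54 to 3.56 normalized counts. The labelled cell type was checked with markers. All 10 T helper cell markers and all 8 Th17 markers were detected. Of the Th17 markers 0 differed at an adjusted p-value under 0.05 in limma, while 5 (Il17a, Il17f, Il23r, Ccr6 and Il1r1) had an unadjusted one under 0.05 with the higher mean in K187R, against 2.75% of all genes. The table counts reads per gene, so it cannot show the K187R change itself. Genes of other cells were also present. The 12 myeloid markers summed to between 28205 and 99901 normalized counts in WT and between 51846 and 94742 in K187R, with none of them at 0, and the 8 B cell markers to between 504 and 1614 and between 598 and 2094. The mean was higher in K187R for 12 of 12 myeloid, 7 of 7 tested B cell and 6 of 6 tested mast cell and basophil markers, against 48.4% of all genes. Markers of 1 cell type are not independent, and 0 of these were called. The myeloid marker Lyz2 had 17025 and 17030 normalized counts in WT replicates 1 and 3. In WT replicates 2 and 4 it had 42242 and 54522, within the K187R range of 30153 to 57778. The part of these cells in the cytokine values was not tested. Clustering over 16856 genes, the listed ones left out, placed the samples in 3 sets that each held both groups: WT replicates 1 and 3 with K187R replicate 1, WT replicate 2 with K187R replicates 2 and 3, and WT replicate 4 with K187R replicate 4. The last pair, the samples numbered 4, stood apart for several of the cytokine genes, as described with each of them.

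The levels of the 10 genes spanned much of the range of the table. Divided by exonic length, which makes genes comparable, Ccl20 (median of the 8 samples 960 normalized counts per kb) and Il10 (946) were highest, above 84.3% and 84.1% of all genes. Il21 followed with 546, Lif with 209, Il2 with 196, Csf2 with 77.6, Il9 with 41.4, Il22 with 36.9, Il3 with 12.2 and Il24 with 1.43, the last above 9.39% of all genes. Ccl20 and Il10 changed places between samples, with Ccl20 the higher in 3 of 8, as did Lif and Il2, with Lif the higher in 4 of 8. Il10 was above Il21 in 8 of 8 samples, Il21 above Lif in 8 of 8, Il2 above Csf2 in 8 of 8, and Il3 above Il24 in 8 of 8. Csf2 was above Il9, Il9 above Il22 and Il22 above Il3 in 6 of 8 samples each. Only between Il10 and Il21 did the ranges of neighbours in this order not overlap.

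**Figure D1:**
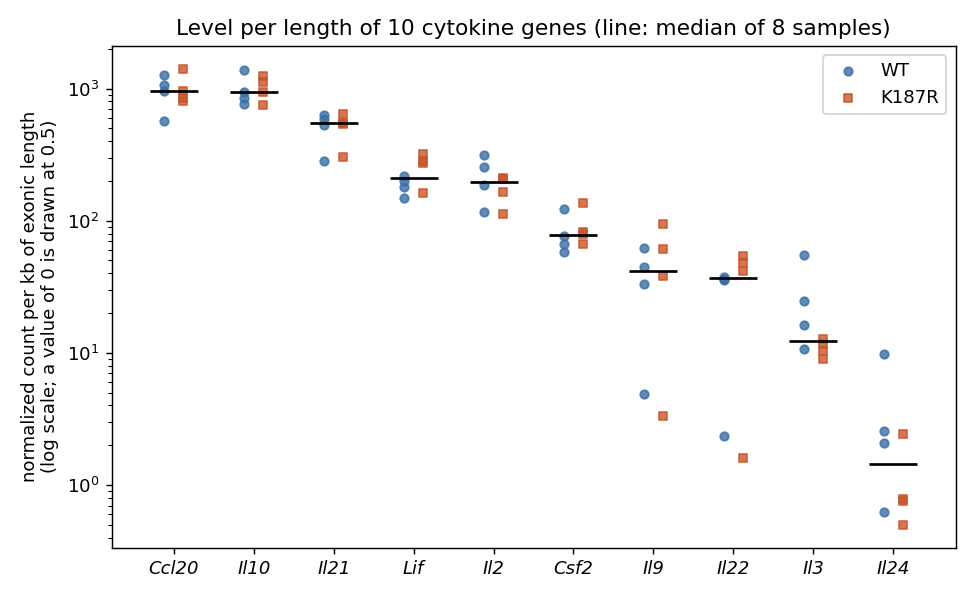
Each point is 1 sample, with the normalized count per kb of exonic length on a log axis, circles for WT and squares for K187R, and the line is the median of the 8 samples. The genes run from Ccl20 (median 960) down to Il24 (1.43), and for Il9 and Il22 1 sample of each group lies far below the rest.

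The study asked whether SUMOylation of ROR-γt limits what Th17 cells express, and each gene was accordingly compared between K187R and WT. None of the 9 tested genes passed the adjusted threshold, but no other gene tested did either, Il17a included. The result therefore does not show that the 9 were unchanged. In limma on log2(normalized count + 1), 0 of 9 had an adjusted p-value under 0.05, where 0.0% of all genes tested did, and 0 of 9 had an unadjusted p-value under 0.05, against 4.39% of all genes. The adjusted p-values of the 9 genes, from limma, ran from 0.921 to 0.996. The recovered reads gave the same count of 0 adjusted calls in edgeR (0.0% of all genes) and in DESeq2. DESeq2 was run without the filter on the mean and called 0.118% of its 22829 genes. In both tools 2 of 9 (Il3 and Lif) had an unadjusted p-value under 0.05. The shares were 4.29% of all genes in edgeR and 3.88% of the 22829 in DESeq2. In DESeq2, 3 of the 9 (Il22, Il9 and Il3) received no adjusted p-value. With the sample set as a factor, 0 of 9 were called (0.00589% of all genes) and Il3 and Lif had an unadjusted p-value under 0.05 (8.21% of all genes). With samples weighted by quality, 0 of 9 were called (0.0177% of all genes) and Il3 alone had such an unadjusted value (18.7% of all genes). The mean was higher in K187R for 7 genes and lower for 2 on the log2 scale, with a median log2 fold change of 0.085 against -0.0062 over all genes. For 0 of 9 genes did the 2 groups of 4 samples not overlap, where 2.46% of all genes separated (1.47% with K187R above and 0.989% with K187R below). The 95% intervals of all 9 differences included 0.

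**Figure D2:**
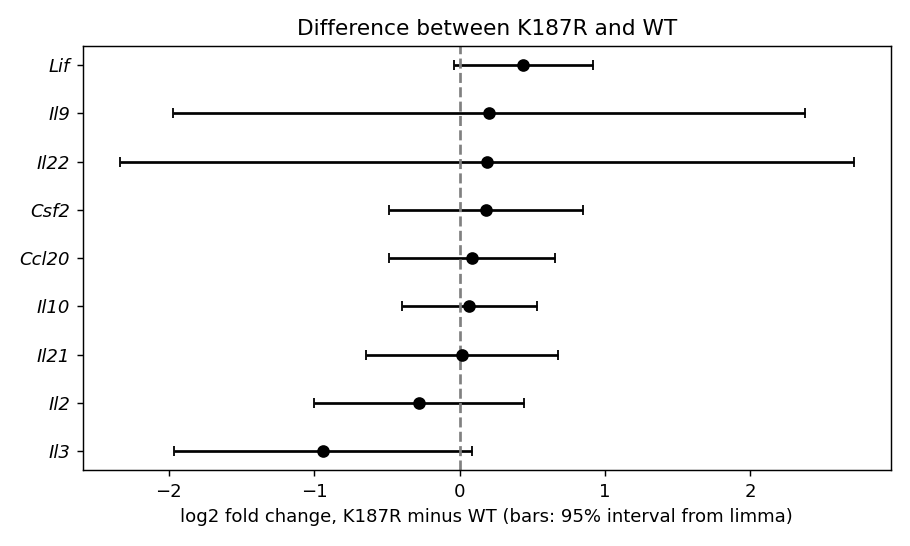
Points are log2 fold changes (K187R minus WT, on the log2(normalized count + 1) scale) of the 9 tested genes and bars their 95% intervals from limma. All 9 intervals cross the dashed line at 0. They are narrowest for Lif and Il10 and widest for Il22 (-2.34 to 2.71) and Il9 (-1.97 to 2.38).

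Il21, Il2 and Il9 belong to the cytokines read through the common gamma chain. IL-21 is made by Th17 and follicular helper cells and acts back on Th17 cells as an autocrine factor. Il21 (ENSMUSG00000027718, chromosome 3 of GRCm38, 37222759 to 37232636, minus strand) had 3335, 3105, 2767 and 1475 normalized counts in WT replicates 1 to 4. In K187R replicates 1 to 4 it had 2892, 3371, 2846 and 1593. The groups overlapped throughout, and the samples numbered 4 were the lowest of both. The means were 2671 ± 830 and 2676 ± 760 (SD, n = 4 each). On the log2 scale they differed by 0.016 (95% interval -0.64 to 0.67, adjusted p = 0.996 from limma). The sign turned with the samples used, to -0.25 without WT replicate 4, to -0.039, -0.11 and -0.031 without K187R replicates 1, 2 and 3, and to -0.016 without both samples numbered 4. Of its exonic bases, 8.92% also lie in a gene on the other strand, Gm12534, whose reads cannot be told apart unless the counting used strand.

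IL-2 is the growth factor of activated T cells and, through STAT5, an inhibitor of Th17 differentiation. Il2 (ENSMUSG00000027720, chromosome 3, 37120523 to 37125959, minus strand) was at 360, 133, 293 and 213 normalized counts in WT. In K187R it was at 236, 188, 127 and 241. Here the samples that stood out were those of the second set, WT replicate 2 and K187R replicates 2 and 3, which were the 3 lowest of the 8. Samples of that set were below all others for 5.65% of all genes. With means of 249 ± 98.5 and 198 ± 52.9 (SD, n = 4 each) the log2 fold change was -0.28 (95% interval -1.0 to 0.44), with an adjusted p-value of 0.925 in limma and 0.486 in the exact two-sided permutation test. It was -0.037 with the sample set as a factor, and -0.073 to -0.55 with 1 sample left out.

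IL-9 is the cytokine of Th9 cells and is also made by Th17 cells in some cultures. It acts on mast cells and lymphocytes. Il9 (ENSMUSG00000021538, chromosome 13, 56479277 to 56482246, minus strand) was low, with 33.3, 24.0, 17.8 and 2.61 normalized counts in WT. K187R gave 20.3, 32.5, 50.6 and 1.78. In replicate 4 of each group these were 3 and 2 reads, at or below the floor of 3 reads, against 18 to 48 reads in the other 6 samples. The log2 fold change of 0.20 (95% interval -1.97 to 2.38, adjusted p = 0.983 from limma) has an interval wide in both directions. Without WT replicate 4 it was -0.50, without K187R replicate 2 it was -0.098 and without K187R replicate 3 it was -0.30. With both samples numbered 4 left out it was 0.40 (adjusted p = 0.672 from limma).

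Il10, Il22 and Il24 encode cytokines of the IL-10 family. IL-10 itself dampens inflammation and marks the less pathogenic Th17 cells grown with TGF-β and IL-6. Il10 (ENSMUSG00000016529, chromosome 1, 131019845 to 131024974) had 1109, 1794, 995 and 1237 normalized counts in WT, and 984, 1635, 1472 and 1241 in K187R. The 3 highest values were those of the second set, the same samples in which Il2 was lowest, and samples of that set were above all others for 8.46% of all genes. The 3 lowest were those of the first set, which was below all others for 7.87% of all genes. The group means were 1284 ± 354 and 1333 ± 283 (SD, n = 4 each). The difference of 0.066 on the log2 scale (95% interval -0.40 to 0.53, adjusted p = 0.970 from limma) turned to -0.11 with the set as a factor, to -0.044 without WT replicate 3 and to -0.041 without K187R replicate 2.

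IL-22 acts on epithelial cells, where it strengthens the barrier and induces antimicrobial proteins. In Th17 cells its gene depends on the aryl hydrocarbon receptor as well as on ROR-γt. Il22 (ENSMUSG00000074695, chromosome 10, 118204942 to 118210047) had 39.2, 40.4, 41.4 and 2.61 normalized counts in WT. In K187R it had 46.3, 59.7, 52.7 and 1.78. Among numbers 1 to 3, a choice made after the values were seen, the means were 40.3 ± 1.11 and 52.9 ± 6.67 (SD, n = 3 each). In number 4 the WT and K187R samples had 3 and 2 reads. Their 95% Poisson intervals, which cover counting error only, were 0.54 to 7.64 and 0.22 to 6.42 normalized counts, far from the lowest other sample, WT replicate 1, at 27.0 to 55.1. Over all 8 samples the log2 fold change was 0.19 (95% interval -2.34 to 2.71, adjusted p = 0.986 from limma), and the exact two-sided permutation test gave p = 0.629. Without both samples numbered 4 it was 0.38 (adjusted p = 0.50 from limma). Leaving out WT replicate 4 alone gave -0.69, and leaving out K187R replicate 1, 2 or 3 gave -0.11, -0.23 and -0.17. Il22 has a near copy in the annotation, Iltifb, whose transcript is 97.4% identical over 1110 aligned bases. Iltifb has no row in the table analysed here, so reads shared between the copies may have been assigned or dropped in a way that is not known.

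Il24, whose product acts on epithelium and skin, was close to the floor. It had 3, 3, 16 and 1 reads in WT and 3, 1, 1 and 0 reads in K187R, which are 3.56, 2.88, 13.5 and 0.871 normalized counts and 3.39, 1.08, 1.05 and 0. Only WT replicate 3 was clearly above the floor. WT replicate 4 and K187R replicates 2, 3 and 4, with 1, 1, 1 and 0 reads, were under the floor of 3 reads. That floor is 2.61, 3.25, 3.16 and 2.67 normalized counts in these samples. The gene was not tested.

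Csf2 and Il3 encode the growth factors of myeloid cells that share the beta common receptor chain. GM-CSF from T cells is needed for disease in models of autoimmunity of the nervous system. Csf2 (ENSMUSG00000018916, chromosome 11, 54247271 to 54249667, minus strand) had 46.3, 52.9, 60.9 and 98.5 normalized counts in WT and 63.3, 66.2, 53.7 and 109 in K187R. The samples numbered 4 were the 2 highest, the opposite of Il22 and Il9. The means were 64.6 ± 23.3 and 73.1 ± 24.7 (SD, n = 4 each), with a log2 fold change of 0.18 (95% interval -0.49 to 0.85, adjusted p = 0.944 from limma) that became -0.026 without K187R replicate 4. A gene on the other strand, Gm12223, shares 12% of its exonic bases.

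Il3 (ENSMUSG00000018914, chromosome 11, 54265303 to 54267277, minus strand) had the largest difference by size of the 9 genes, and was lower in K187R. Its mean over the 8 samples was 11.8, and it reached the required mean of 10 only through WT, the group in which it was higher. The size and direction of its difference are therefore not independent of the filter. WT replicates 1 to 4 had 15.4, 6.73, 10.1 and 34.9 normalized counts, which are 13, 7, 12 and 40 reads. K187R replicates 1 to 4 had 5.65, 6.51, 7.37 and 8.0, from 5 to 9 reads. WT replicate 4 stood far above the other 7 samples, while WT replicate 2 lay within the K187R range. The means were 16.8 ± 12.6 and 6.88 ± 1.03 (SD, n = 4 each). The log2 fold change of -0.94 (95% interval -1.96 to 0.086) had an adjusted p-value of 0.921 in limma and a p-value of 0.0857 in the exact two-sided permutation test, and was -0.52 without WT replicate 4. Among same-numbered samples K187R was lower in 4 of 4, as it was for 8.33% of all genes, with log2 differences of -1.31, -0.042, -0.41 and -1.99.

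LIF signals through gp130 and its own receptor chain. In T cells it has been described as opposing Th17 differentiation and favouring regulatory cells. Lif (ENSMUSG00000034394, chromosome 11, 4257557 to 4272514) came nearest to separating the groups upward. It had 876, 785, 945 and 645 normalized counts in WT replicates 1 to 4 and 1194, 1220, 1391 and 699 in K187R replicates 1 to 4. The K187R samples numbered 1 to 3 were above all 4 WT samples, and K187R replicate 4 was below 3 of the 4. The means were 813 ± 129 and 1126 ± 298 (SD, n = 4 each), and the log2 fold change was 0.44 (95% interval -0.038 to 0.92, adjusted p = 0.921 from limma). The exact two-sided permutation p was 0.114, where 0.0286 is the smallest that 4 against 4 samples allow. Same-numbered K187R samples were 1.36, 1.55, 1.47 and 1.08 times the WT sample, higher in 4 of 4, as was the case for 11.0% of all genes.

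Within the 3 sets of samples the Lif difference was 0.39, 0.73 and 0.12 on the log2 scale, and permuting exactly within sets gave p = 0.0556, the smallest that 18 regroupings allow. Without both samples numbered 4 the means were 869 ± 79.8 and 1269 ± 107 (SD, n = 3 each) and the log2 fold change was 0.55, with an adjusted p-value of 0.288 from limma, a setting in which 0.0236% of all genes were called. Direction was kept when any 1 sample was left out, between 0.32 and 0.65, and the adjusted p-value stayed above the threshold in all of these. The gene with the most similar profile over the 8 samples was Cd22, a B cell surface receptor, at 140 ± 21.0 and 218 ± 61.8 normalized counts (SD, n = 4 each). Of the 8 B cell markers 7 were tested, all 7 with a higher mean in K187R, against 48.4% of all genes. Among these, 1 (Cd22) had an unadjusted p-value under 0.05 in limma, against 2.75% of all genes with the higher mean in K187R. Fcer2a was at 0 in some samples. The part of B cells in the Lif values was not tested.

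Ccl20 (ENSMUSG00000026166, chromosome 1, 83116766 to 83119167) is the only chemokine of the group, the ligand of Ccr6, by which Th17 cells are drawn to inflamed tissue. It had 1790, 1365, 1507 and 812 normalized counts in WT and 2005, 1364, 1206 and 1149 in K187R. The ranges overlapped, replicate 4 was the lowest of each group, and the 3 samples of the first set were the highest of all 8, as for 6.05% of all genes. The means of 1368 ± 411 and 1431 ± 393 (SD, n = 4 each) differed by 0.085 on the log2 scale (95% interval -0.48 to 0.65), with an adjusted p-value of 0.969 in limma and a p-value of 0.857 in the exact two-sided permutation test. The sign turned to -0.15 without WT replicate 4, to -0.089 without K187R replicate 1, and to -0.053 without both samples numbered 4. The within-set value was 0.21.

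**Figure D3:**
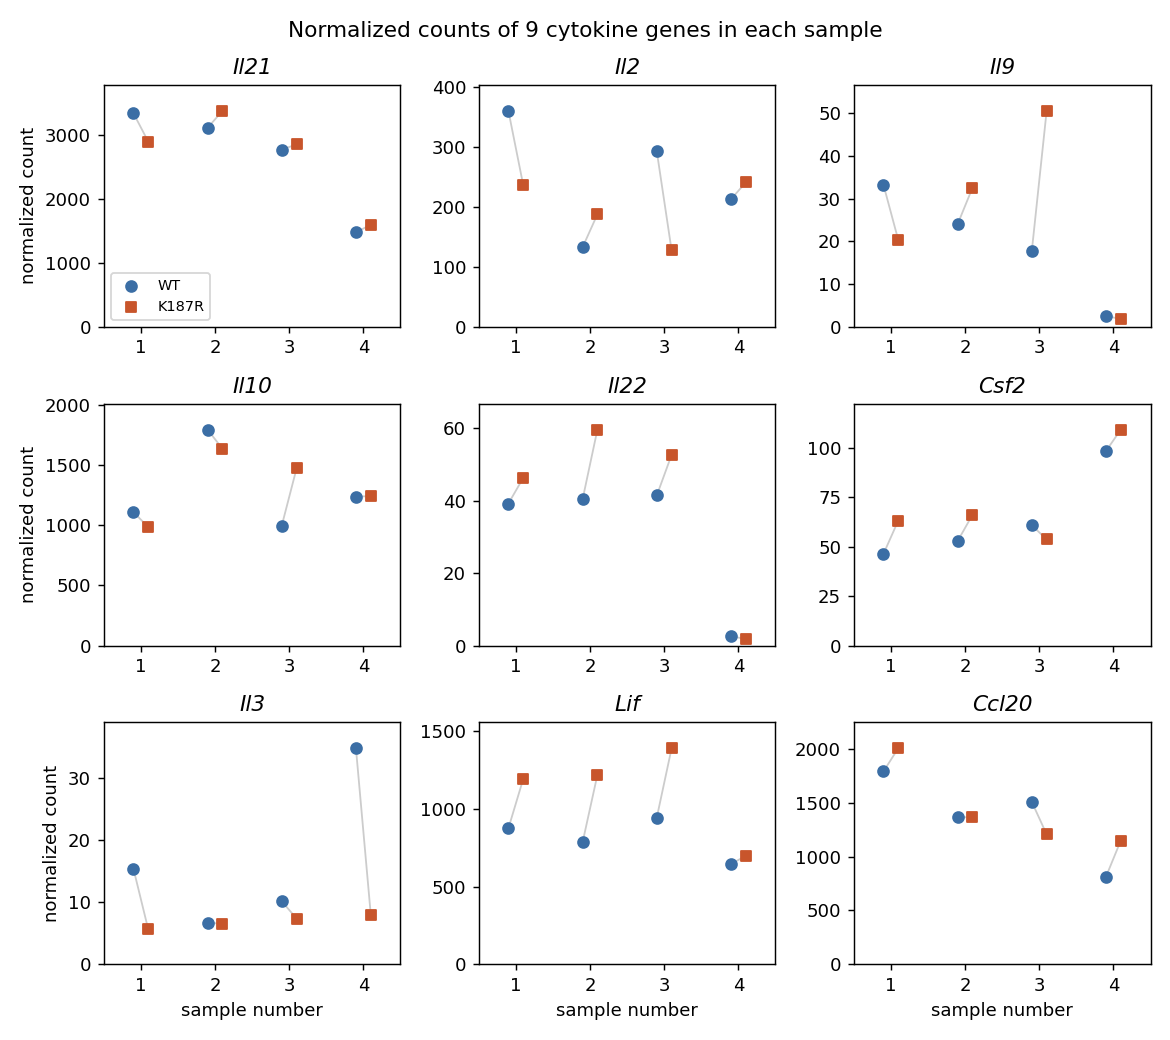
Each panel shows the normalized counts of 1 gene, on an axis from 0, in WT (circles) and K187R (squares), with same-numbered samples joined by a grey line. Il22 and Il9 are at 3 reads or fewer in both samples numbered 4, Csf2 is highest there, and Lif is higher in K187R in each of the 4 numbers.

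The samples numbered 4, whichever form of ROR-γt they carried, stood apart in 6 of these genes. The comparison of number 4 with the rest was chosen after the values were seen and is given without a test. In 5 of the 9 genes (Il21, Il22, Il9, Ccl20 and Lif) both samples numbered 4 were below the other 6, where 12.2% of all genes showed this, and in 1 gene (Csf2) both were above, as in 11.6% of all genes. For numbers 1, 2 and 3 the corresponding counts were 0 of 9 below in each and 1, 1 and 0 of 9 above (Ccl20 in number 1 and Il10 in number 2), where 3.94%, 9.06% and 2.96% of all genes were below and 4.68%, 6.32% and 3.36% above. The mean of the samples numbered 4 was 0.503 times that of the others for Il21, 0.637 for Ccl20, 0.629 for Lif and 1.82 for Csf2. For Il22 and Il9 it rests on 2 or 3 reads in each of those samples. The difference on the log2(normalized count + 1) scale, which at such counts depends on the added 1, was -3.89 for Il22 and -3.19 for Il9, and 6 and 21 of the 16982 genes had a lower one. Il10 (0.931 times) and Il2 (1.02 times) were near the level of the other samples. For Il3 it was 2.48 times, from 34.9 normalized counts in WT replicate 4 and 8.0 in K187R replicate 4.

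**Figure D4:**
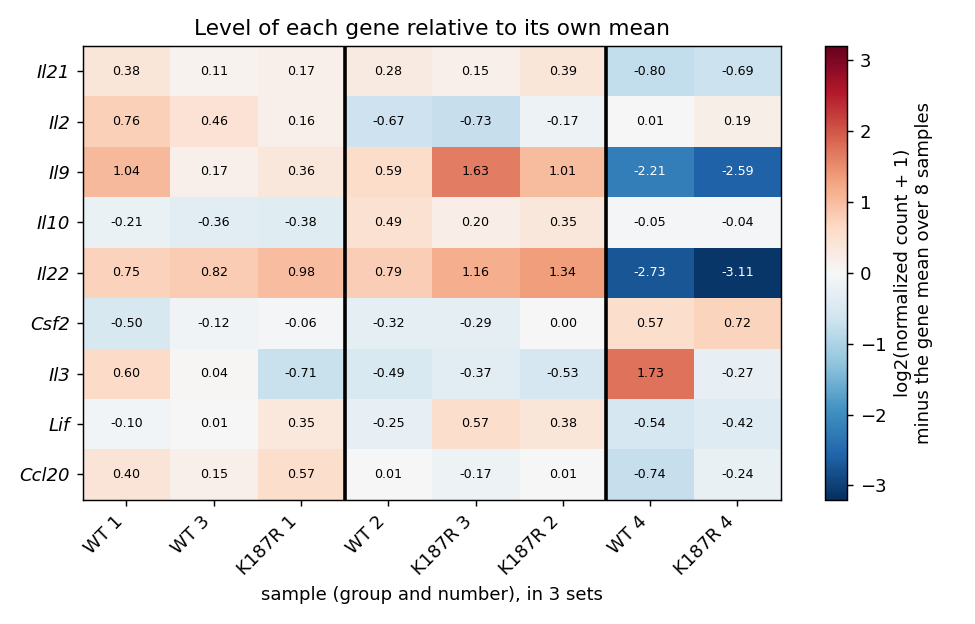
Colours and printed values give log2(normalized count + 1) minus the mean of each gene over the 8 samples, with the samples ordered by set and black lines between the sets. The right-hand pair, WT replicate 4 and K187R replicate 4, is lowest for Il22 (-2.73 and -3.11) and Il9 (-2.21 and -2.59), while Il2 is lowest and Il10 highest in the middle set.

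Markers of T cells and of other cells also differed in the samples numbered 4. Of all genes, 12.2% were below the other 6 samples there and 11.6% above. All 7 tested B cell markers were below the other 6 samples there, their sum (with Fcer2a) being 504 and 598 normalized counts against 1353 to 2094. The myeloid markers were not low, with sums of 89467 and 94742 against 28205 to 99901. Of these 12, 4 (Lyz2, Itgam, Fcgr1 and Cd68) were above all other samples, against 11.6% of all genes. Mast cell and basophil markers summed to between 3519 and 5103 there and to between 1287 and 4879 elsewhere, with Mcpt4 and Tpsb2 at 0 in some samples. Of 5 CD8 T cell markers, 2 (Cd8a and Cd8b1) were above all other samples and 1 (Gzma) was below. Cd8a had 567 and 635 normalized counts there, against 121 to 204 elsewhere. Of 10 T helper cell markers, 1 (Trbc2) was above and 1 (Cd4) below. Of 24 regulators of these cytokine genes, 5 (Irf4, Stat3, Ahr, Hif1a and Rel) were below the other samples, against 12.2% of all genes, and 1 was above. Ahr, the aryl hydrocarbon receptor, and Irf4, a factor of T cell activation, are both used in Th17 cells. Of 14 early activation genes none was below and 4 (Egr1, Egr2, Fos and Dusp2) were above, against 11.6% of all genes. In bulk RNA, fewer cells of a type and less RNA per cell cannot be told apart, and the part of these genes or cells in the cytokine levels was not tested.

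The sequences just before and at the starts of 5 of these genes are shown because Il22, Il9, Il21, Ccl20 and Lif were all lowest in the samples numbered 4. They are RefSeq promoter windows of 300 bases on GRCm38.p6, read 5′ to 3′ along the gene, and 8 of the 10 genes had one (not Il10 or Il24). Capitals mark letters that match 1 of 3 motifs on either strand: AGGTCA, the core bound by ROR receptors, TGANTCA, bound by AP-1 factors, and TTCNNNGAA, bound by STAT factors. The windows are chr10:118204714-118205013 (plus strand) for Il22, chr13:56482208-56482507 (minus strand) for Il9, chr3:37232587-37232886 (minus strand) for Il21, chr1:83116516-83116815 (plus strand) for Ccl20 and chr11:4257318-4257617 (plus strand) for Lif.
Il22: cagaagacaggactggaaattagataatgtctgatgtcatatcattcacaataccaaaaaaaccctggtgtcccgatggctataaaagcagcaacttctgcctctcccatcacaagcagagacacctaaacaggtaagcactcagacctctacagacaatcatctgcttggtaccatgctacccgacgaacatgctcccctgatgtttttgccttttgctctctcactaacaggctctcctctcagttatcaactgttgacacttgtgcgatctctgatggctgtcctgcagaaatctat
Il9: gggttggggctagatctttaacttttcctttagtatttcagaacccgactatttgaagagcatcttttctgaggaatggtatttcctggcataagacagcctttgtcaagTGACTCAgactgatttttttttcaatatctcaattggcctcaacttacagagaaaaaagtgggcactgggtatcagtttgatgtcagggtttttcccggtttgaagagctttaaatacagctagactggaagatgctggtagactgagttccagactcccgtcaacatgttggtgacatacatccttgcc
Il21: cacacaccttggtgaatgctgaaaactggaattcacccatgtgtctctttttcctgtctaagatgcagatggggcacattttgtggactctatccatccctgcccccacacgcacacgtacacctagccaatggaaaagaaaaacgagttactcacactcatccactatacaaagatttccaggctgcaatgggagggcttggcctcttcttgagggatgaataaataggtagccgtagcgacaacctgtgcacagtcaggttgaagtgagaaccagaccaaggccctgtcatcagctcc
Ccl20: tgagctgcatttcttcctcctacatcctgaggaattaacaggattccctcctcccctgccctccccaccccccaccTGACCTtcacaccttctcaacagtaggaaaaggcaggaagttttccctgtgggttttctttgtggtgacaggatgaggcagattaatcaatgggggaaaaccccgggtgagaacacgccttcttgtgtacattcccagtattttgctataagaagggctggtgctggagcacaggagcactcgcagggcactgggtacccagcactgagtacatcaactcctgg
Lif: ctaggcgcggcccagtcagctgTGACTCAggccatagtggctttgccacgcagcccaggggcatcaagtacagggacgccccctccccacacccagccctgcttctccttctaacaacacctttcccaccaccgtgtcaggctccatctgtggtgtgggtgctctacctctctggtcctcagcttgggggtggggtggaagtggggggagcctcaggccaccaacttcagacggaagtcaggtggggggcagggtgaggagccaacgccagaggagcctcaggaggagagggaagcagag
Ccl20 held the ROR core once, on the other strand at position -174 from the start, and Il2 once, at position 28. The AP-1 letters stood once in Il9 at position -140 and once in Lif at position -228. No matches overlapped. These are 2 of 8 windows for each of the motifs AGGTCA and TGANTCA, which occurred in 16.3% and 7.81% of all 32851 promoter windows, and 0 of 8 for TTCNNNGAA, which occurred in 8.30%. No one of these motifs stood in all 5 windows of the genes that were low together, while the AP-1 letters stood in 2 of them (Il9 and Lif). A match in letters is not evidence of binding, nor its absence evidence against it.

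Genes with the most similar course over the 8 samples were found by the root mean square difference of the mean-centred log2 values, as a description. For Il22 these were Cacna1e, at a difference of 0.473, and Il9, at 0.477, where Il22 itself varied by 1.70 around its mean. Il9 thus had rank 2 among all genes for Il22, and Il22 had rank 3 for Il9, after Ighv10-1 (0.357), an immunoglobulin segment of B cells, and Ifi205 (0.413). The nearest profiles to Il21 were Ccr4 (0.114) and Idi1 (0.122), those to Il10 Pank1 (0.079) and Hopx (0.096), those to Il2 Vwa1 (0.141) and Gm26771 (0.161), and those to Lif Cd22 (0.111) and Sema6d (0.119). Csf2 was nearest to Gm37472 (0.124) and Gm16091 (0.134), Ccl20 to Gm4864 (0.112) and Gm13430 (0.125), and Il3 to Gm22488 (0.396) and Mir7087 (0.402). Il3 itself varied by 0.756 around its mean.

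Several of these genes are neighbours. Il3 and Csf2 lie 15.6 kb apart on chromosome 11 with no listed gene between them, and WT replicate 4 was the highest or second highest sample for both, while K187R replicate 4 was highest for Csf2 and had 9 reads for Il3. Il2 and Il21 lie 96.8 kb apart on chromosome 3, and in the samples numbered 4, where Il21 was lowest, Il2 had 213 and 241 normalized counts, within its range elsewhere. Il24 and Il10 are 132 kb apart on chromosome 1, on either side of Il19, a further member of the family that had a mean of 1.78 normalized counts. Of the adjacent genes, Osm, the gene of oncostatin M and a relative of LIF 16.5 kb from Lif, had a mean of 2362 and a log2 fold change of 0.065 (adjusted p = 0.969 from limma). Mapkapk2, 28.7 kb from Il10, had a mean of 11989 and a log2 fold change of -0.016 (adjusted p = 0.984 from limma). P4ha2, 116 kb from Csf2, had -0.59 (unadjusted p = 0.0310, adjusted p = 0.921 from limma), and Mdm1, 35.9 kb from Il22, had -0.072 (adjusted p = 0.939 from limma). Of the other neighbours tested, Fcmr had a log2 fold change of 0.30, Fbxl21 0.31, Gm43822 -0.13, Gm12583 -0.055, Acsl6 -0.11, Gm29519 -0.32 and Hormad2 0.059, and Gm12532, Gm32717, Cxcl14 and Slc19a3 were under the mean of 10.

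Of 18 receptor chains for these ligands 17 were listed and 16 tested. The adjusted p-values from limma were all above the threshold, and those of 2 chains were under 0.05 before adjustment, both with the higher mean in K187R, where 2.75% of all genes did so. Il10ra, the ligand-binding chain for IL-10, had 1814, 1971, 2027 and 2246 normalized counts in WT and 2424, 2332, 2768 and 2400 in K187R. The groups did not overlap, as in 1.47% of all genes, and the difference was 0.30 ± 0.090 on the log2 scale (estimate and standard error), with an adjusted p-value of 0.921 in limma. Ccr6, the receptor for Ccl20 and a marker of Th17 cells, had 1103, 1724, 1163 and 776 in WT and 2290, 2780, 3038 and 1490 in K187R. Here the difference was 1.02 ± 0.27, with the same adjusted p-value of 0.921 in limma, and K187R replicate 4 lay within the WT range. The median over the 16 chains was 0.28 against -0.0062 over all genes. Il2ra, the chain that makes the IL-2 receptor high-affinity, was abundant at 72628 to 132086 normalized counts in WT and 68677 to 99074 in K187R. Il22ra2, a soluble IL-22 binding protein, ranged from 9.59 to 229. In the samples numbered 4, 2 of the 16 chains (Il22ra2 and Il6st, the gene of gp130) were below all other samples, against 12.2% of all genes. There 1 chain (Il20rb) was above all others, against 11.6% of all genes.

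The factors that drive these cytokine genes and the other cytokines of the cultures were examined in the same way. Of 24 regulators, 0 passed the adjusted threshold in limma, while before adjustment 2 were under 0.05, against 4.39% of all genes. These were Id2, an inhibitor of E proteins, with a log2 fold change of 0.33, and Fosl2, an AP-1 member, with -0.50 (adjusted p = 0.921 from limma for both). The median of the list was 0.015. Among 18 other secreted cytokines of T cells 17 were tested, 0 passed and 3 had an unadjusted p-value under 0.05 with the higher mean in K187R, against 2.75% of all genes. Those 3 were Il17a with 0.74, Il17f with 0.55 and Ltb, the gene of lymphotoxin beta, with 0.30 (adjusted p = 0.921 from limma for each), and the median was 0.12. Of 14 early activation genes 0 passed, and 3 had the lower mean in K187R at an unadjusted p-value under 0.05, where 1.64% of all genes did. They were Nr4a2 with -0.47, Nr4a3 with -0.45 and Tnfrsf9, the costimulatory receptor 4-1BB, with -0.44 (adjusted p = 0.921 from limma for each), and 12 of the 14 had the lower mean, with a median of -0.18.

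The spread between replicates set what these data could resolve. The SD within groups on the log2 scale had a median of 0.508 over the 9 genes, against 0.220 over all genes tested. It was 1.96 for Il22, above 99.7% of all genes, and 1.67 for Il9, above 99.5%, followed by 0.684 for Il3, 0.534 for Il2 and 0.508 for Il21. Lif (0.353) and Il10 (0.345) were the steadiest of the 9. The biological coefficient of variation from edgeR, which sets counting error aside, was 0.846 for Il22 and 0.791 for Il9, where genes of their level had 0.362 and 0.379. For Il21, an abundant gene, it was 0.281 against 0.147. For Csf2 it was 0.318 against 0.344, no more than is usual at its level.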

How the data were processed

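RNA seq was compared between 4 samples with WT-ROR-γt and 4 with K187R-ROR-γt, grouped by their titles. The authors trimmed reads with Cutadapt, aligned them with HISAT2 to GRCm38 and counted them with featureCounts on GENCODE M15, and the deposited signal per gene is this count divided by a DESeq2 size factor. Whether counting used strand is not given in the sources used here. All values (100%) were whole multiples of 1 read (tolerance 0.01 of a read), so the reads were recovered. The labels and the methods name different library kits. The level of 1 regulator is not reported here.

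The main test was limma with a trend on log2(normalized count + 1) for genes with a mean of at least 10, with Benjamini-Hochberg adjustment over all of them. It was chosen for values deposited after normalization, and DESeq2, the tool of the study, was run on the recovered reads as an alternative. Single genes were also tested by exact two-sided permutation. Members and lists were chosen with earlier results of these data known. Besides the 10 genes, the text names the 2 most similar profiles per gene, adjacent listed genes, and listed genes with an unadjusted p-value under 0.05. A few others are named after their values were seen. The settings varied were the pseudocount (0.5 or 5), the filter (none, or a mean of 50), TMM scaling, sample weights, the replicate block, the sample set, edgeR, DESeq2, and samples left out. In simulated counts of this comparison with 200 genes changed, limma on 16787 genes found 74.0% of genes changed by 1 and 98.1% of those changed by 2 on the log2 scale, and 5.46% of its calls were false. DESeq2 on 16982 genes found 83.3% and 99.0%, and 21.8% of its calls were false. Only genes with a mean over 50 were changed, so the shares found do not cover Il22, Il9 and Il3. Counts were drawn independently for each gene and sample, without the 3 sample sets. The shares found and false may therefore differ in the real samples. Lengths and coordinates are from GENCODE M21 on GRCm38. Fits used limma 3.58.1, DESeq2 1.42.0 and edgeR 4.0.16 in R 4.3.3. In Python 3.11.15, permutations used numpy 2.4.6 and Poisson intervals scipy 1.17.1.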

Additional observations from a re-analysis of the deposited data

Results flagged for a closer look

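Il22 in WT replicate 4, at 2.61 normalized counts, lay further from the other WT samples (39.2 to 41.4) than Dixon's test allows for 4 samples on the log2 scale. Il22 in K187R replicate 4, at 1.78 normalized counts, did so from the other K187R samples (46.3 to 59.7). These were 2 of 18 groups of 4 samples examined over the 9 tested genes, where chance gives about 1 in 20, or 0.9. Both samples carry the number 4. Their depth of 67794893 and 67827288 reads was not low, and the cause of the low values was not tested.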

How the results depend on the processing

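Alternatives left 0 of the 9 genes past the threshold. Of 168 results over these genes and settings, 145 kept their direction and 23 reversed. Il2, Il3 and Lif reversed in none. With sample weights the log2 fold change became -0.11 for Il21, -0.18 for Il22, -0.099 for Il9 and -0.11 for Ccl20. With the sample set it became -0.11 for Il10, whose permutation p within sets was 0.222. Without both samples numbered 4 it became -0.016 for Il21 and -0.053 for Ccl20. With 1 sample left out it ranged from -0.25 to 0.25 for Il21, -0.69 to 1.25 for Il22, -0.044 to 0.24 for Il10, -0.50 to 1.1 for Il9, -0.026 to 0.40 for Csf2 and -0.15 to 0.23 for Ccl20. Over all settings Lif ranged from 0.32 to 0.65 and Il3 from -1.29 to -0.52.

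The number of genes past the threshold was 0 in limma (746 at an unadjusted p-value under 0.05). It was 3 with sample weights, 1 with the sample set and 27 in DESeq2, the last among 22829 genes without the filter on the mean. In the simulated counts 21.8% of the DESeq2 calls were false. Those counts were drawn without the sample sets and only for the genes that passed the filter, so this share does not carry over to the 27 calls. The number was 4 without both samples numbered 4, and 0 to 4 with 1 sample left out, the 4 being without WT replicate 4. It stayed 0 under the others, edgeR included (729 unadjusted). The cause was not tested. Same-numbered samples deviated from their group means with correlations across genes of 0.59, 0.66, -0.092 and 0.63 for numbers 1 to 4. Those of number 3 were thus not alike in this respect. Whether a number stands for a shared animal or culture cannot be told from these correlations. With the replicate block 0 genes passed (2046 unadjusted), and Lif had an adjusted p-value of 0.408 and Il3 of 0.411 from limma. Under the filter at a mean of 50, Il22, Il9 and Il3 drop out. Levels of Il22 and Il9 at 3 reads or fewer are not resolved at this depth.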
